A study of Mus musculus with 2 samples.

Results

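A set of 9 genes of antigen presentation on MHC class II was followed across single cells: the chain genes H2-Aa, H2-Ab1 and H2-Eb1, the invariant chain gene Cd74, the peptide loading genes H2-DMa, H2-DMb1, H2-Oa and H2-Ob, and the transactivator gene Ciita. They were chosen by name, with earlier results of these data known, and are 9 of the 31053 genes in the count matrix. The study describes 2 pools of sorted cells, each from 5 wild-type C57BL/6J female mice aged 10 weeks, one pool healthy and one with experimental autoimmune encephalomyelitis (EAE), a mouse model of inflammation of the central nervous system. Tissue around the cribriform plate, with olfactory bulb and nasal mucosa, was dissociated, and cells stained by Podoplanin and CD31 were sorted while CD45+ and dead cells were left out. The matrix tells its cells apart by a barcode suffix, 1 or 2, and no label ties a suffix to a pool. The cells are therefore called library 1 and library 2, and a difference between them compares these 2 libraries, not healthy mice with EAE mice. Each library is 1 sample with no replicate, so no test was made and the intervals below cover counting error only.

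MHC class II molecules carry peptides from the endosomes to the cell surface, where CD4+ T cells read them. An alpha and a beta chain pair in the endoplasmic reticulum around the invariant chain, which is cut down in the endosome to a fragment that sits in the peptide groove. The DM heterodimer trades that fragment for peptide, and the DO heterodimer holds DM back. CIITA is the coactivator that class II promoters need, and interferon gamma is its best known inducer. In the brain, microglia at rest carry little class II and raise it in inflammation, while dendritic cells, B cells and border-associated macrophages can carry it without inflammation.

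UMIs are unique molecular identifiers, 1 per captured RNA molecule. Barcodes were kept when 200 genes or more were detected and mitochondrial genes held no more than 20% of the UMIs, which left 3406 cells in library 1 and 1922 in library 2, with medians of 7334 and 9782.5 UMIs. The sort label names lymphatic endothelium, but at least 3 of its 6 markers with at most 2 of 7 microglia markers were found in 1 cell of library 1 and in 0 cells of library 2. At least 5 of the 7 microglia markers were present in 3249 cells (95.4%) and 1635 cells (85.1%), so the values below are mostly those of cells with microglia markers. Such a gate is a range of a marker count and not a cell type: 343 cells of library 2 lay just inside it. The dendritic cell gate held 0 cells in either library, the border-associated macrophage gate 6 and 0, and the gate of olfactory sensory neurons, which should lack class II, 19 and 42. Among kept cells, 7 barcode sequences occurred in both libraries.

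The chain genes and the DO and DM genes lie in 2 runs on chromosome 17, in the order H2-Oa, Brd2, H2-DMa, H2-DMb2, H2-DMb1 and, further on, H2-Ob, H2-Ab1, H2-Aa, H2-Eb1. Ciita lies on chromosome 16. Class II promoters are known for an X box, bound by the RFX complex and by CREB, and a Y box, bound by NF-Y, to which CIITA is recruited as a coactivator. RefSeq promoters of GRCm38.p6 matched 6 of the 9 genes, with 7 windows of 300 bases. Both strands were searched for the X1 core ACNGATG, held by 9.85% of the 32851 promoters of the table, and for the Y core GATTGG, held by 16.1%. Both, at any spacing and on either strand, were in 1.52% of all promoters and in those of 4 members, H2-Aa, H2-Eb1, H2-DMb1 and H2-Oa. The 250 bases before the start of 3 members are printed, because their levels behaved differently below: a pair of chain genes often found in the same cells, and H2-Ob, which was not higher in library 2. The H2-Eb1 stretch is chr17:34305617-34305866 on the plus strand, the H2-Aa stretch chr17:34287824-34288073 on the minus strand and the H2-Ob stretch chr17:34238655-34238904 on the plus strand. Capitals mark matches to either core on either strand.
H2-Eb1: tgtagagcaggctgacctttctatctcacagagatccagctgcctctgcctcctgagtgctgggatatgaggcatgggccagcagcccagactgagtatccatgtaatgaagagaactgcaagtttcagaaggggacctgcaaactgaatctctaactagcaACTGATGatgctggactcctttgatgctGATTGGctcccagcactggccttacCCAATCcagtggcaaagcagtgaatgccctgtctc
H2-Aa: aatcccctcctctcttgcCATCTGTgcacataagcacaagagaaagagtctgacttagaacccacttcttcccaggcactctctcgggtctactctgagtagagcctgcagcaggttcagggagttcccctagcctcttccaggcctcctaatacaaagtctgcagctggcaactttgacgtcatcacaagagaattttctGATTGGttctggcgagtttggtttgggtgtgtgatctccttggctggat
H2-Ob: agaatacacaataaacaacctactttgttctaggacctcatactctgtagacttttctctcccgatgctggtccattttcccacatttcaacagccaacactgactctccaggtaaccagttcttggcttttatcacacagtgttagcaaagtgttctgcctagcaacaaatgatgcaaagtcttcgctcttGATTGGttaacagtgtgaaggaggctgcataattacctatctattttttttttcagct
In H2-Eb1 the X1 core began 88 bases and the Y core 60 bases before the start, which put them 28 bases apart. In H2-DMb1 they began 91 and 62 bases before the start, 29 apart, and in H2-Oa 137 and 44 bases before it, 93 apart. H2-Aa held its Y core 49 bases before the start, and its only X1 match lay on the other strand near the far end of the window. H2-Ob held the Y core 58 bases before the start and no match to these letters of X1. A match is a run of letters and shows no binding. A box whose letters differ from the core searched is missed, so the lack of a match does not show that a box is absent. Whether these sequences bear on the levels was not tested.

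The 3 chain genes were rare in library 1 and common in library 2. H2-Aa, the alpha chain of the I-A molecule, stood at 54.1 CPM (UMIs scaled to a common library total; 95% Poisson interval 51.3 to 57.0) in library 1 and at 1969 CPM (1950 to 1988) in library 2, a 36.4-fold difference. H2-Ab1, the I-A beta chain, stood at 72.7 and 2132 CPM, 29.3-fold apart. H2-Eb1, the beta chain of I-E, stood at 46.6 and 1646 CPM, 35.3-fold apart. The intervals of the 2 libraries were far from overlapping for each chain gene. Ciita had 22 UMIs in all of library 1 (0.854 CPM, 0.535 to 1.29) and 780 in library 2 (38.5 CPM, 35.8 to 41.3), 45.0-fold apart. Cd74, the invariant chain, stood at 663 CPM (653 to 673) and 8965 CPM (8924 to 9007), 13.5-fold apart.

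The peptide loading genes differed less between the libraries. H2-DMa stood at 175 and 588 CPM, 3.36-fold apart, and H2-DMb1 at 139 and 360 CPM, 2.59-fold apart. These genes code for the alpha and beta chains of DM. Reads of H2-DMb1 could be shared with its close copy H2-DMb2 next to it, so its value is uncertain. H2-Oa, the DO alpha chain, stood at 49.1 and 124 CPM, 2.52-fold apart. H2-Ob, the DO beta chain, stood at 17.2 CPM (15.6 to 18.9) in library 1 and 14.2 CPM (12.6 to 15.9) in library 2, a ratio of 0.823 whose counting interval (0.707 to 0.957) lay below 1. At least 2-fold higher in library 2 were 8 of the 9 members, where 14.2% of the 13891 genes with at least 20 UMIs were. At least 2-fold lower were 0 of the 9, against 8.37% of those genes. On the log2 scale with 10 CPM added, the median difference was 2.16 over the members and 0.02 over all genes tested. The member at that median was Ciita, whose low level in library 1 makes it sensitive to the amount added: with 1 CPM added its difference was 4.41 and the medians were 3.76 and 0.03.

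**Figure D1:**
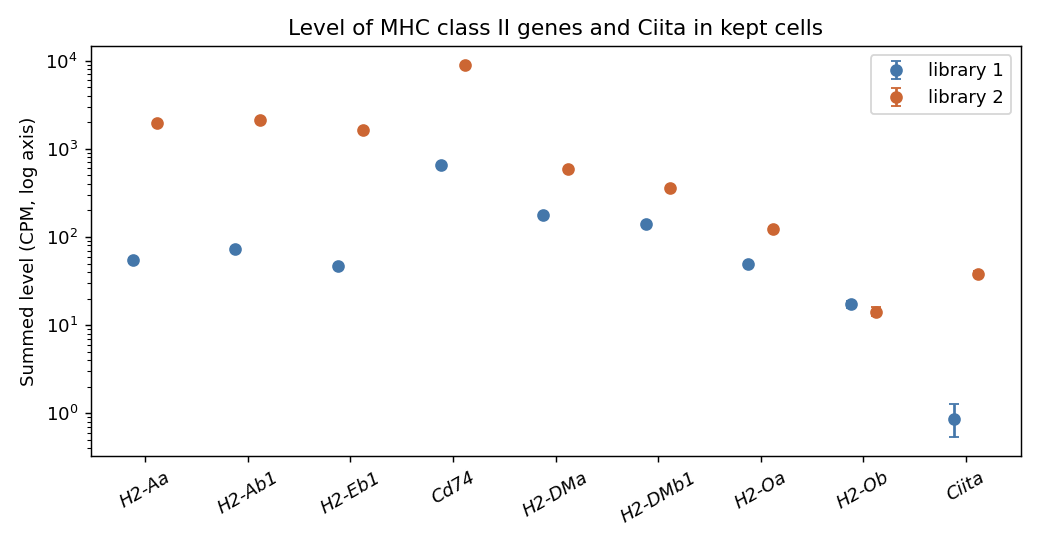
Summed level of the 9 genes in the kept cells of each library, in CPM on a log axis; points are 1 library each and bars are 95% Poisson intervals. The chain genes, Cd74 and Ciita lie furthest apart, and H2-Ob is slightly lower in library 2.

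Other genes of the pathway did not share this shift as a group. Of 26 listed, 24 were in the matrix under the symbols used and 23 had enough UMIs. At least 2-fold higher in library 2 were 3 of them, at least 2-fold lower were 2, and 18 were neither, with a median log2 difference of -0.02. Ctss, the protease that trims the invariant chain, stood at 4699 and 9489 CPM, 2.02-fold apart, and H2-DMb2 at 3.61 and 13.3 CPM, with the uncertainty of its copy. Cst3, a secreted inhibitor of such proteases, was 4.79-fold lower in library 2 (45032 and 9394 CPM), and Cd83, named here after its values were seen, was 3.50-fold lower. The 7 regulator genes, which code for the subunits of RFX and NF-Y and for CREB, were all neither; Rfx5 stood at 11.3 and 15.5 CPM. Lgmn, an endosomal protease, stood at 3358 and 3447 CPM.

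The share of cells with a UMI was compared after each cell was thinned at random to 1000 UMIs, which left 3319 and 1907 cells. H2-Ab1 was found in 107 cells (3.22%, exact binomial interval 2.65 to 3.88) of library 1 and in 1295 (67.9%, 65.8 to 70.0) of library 2. H2-Aa was found in 2.68% and 64.3%, and H2-Eb1 in 2.20% and 62.7%. Cd74 was found in 27.4% and 87.9%, and Ciita in 3 cells (0.0904%) and 68 cells (3.57%). H2-DMa was found in 16.2% and 42.3%, H2-DMb1 in 431 and 535 cells (28.1% in library 2), and H2-Oa in 4.64% and 10.1%. H2-Ob was found in 1.78% (1.36 to 2.29) and 1.26% (0.808 to 1.87), with overlapping intervals. With all UMIs counted, any chain gene was found in 15.9% and 92.2% of kept cells, and Ciita in 0.499% and 24.8%.

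Cells that should lack class II were used to gauge the background of free RNA. Their gate allowed at most 2 of the 7 microglia markers. It thus left out cells with much stray microglia RNA, and the background may be read too low. In the 42 cells of library 2 gated as sensory neurons, 11 had a chain gene with all UMIs counted, and after thinning 3 of 41 did (7.32%), against 81.2% of all thinned cells of that library. With all UMIs counted, Cd74 stood at 62.2 CPM and H2-Ab1 at 27.2 CPM in those neurons, and Ciita was at 0 UMIs. Cells of library 2 gated as olfactory ensheathing glia held a chain gene after thinning in 9 of 19 cells (47.4%, 24.4 to 71.1). Those gated as astrocytes did in 6 of 19 (31.6%, 12.6 to 56.6), and 15 astrocyte-gated cells lay just inside their gate. Both shares were above that of the neurons, but the interval of the astrocytes overlapped that of the neurons (1.54 to 19.9). In library 1, 1 of 19 sensory neurons had a chain gene with all UMIs counted and 0 of 13 after thinning. These gates do not exclude each other, so the same cell may be counted in more than 1 of them. Whether the UMIs of the glia came from their own RNA was not tested, and no doublet caller was run.

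In library 2 the chain genes were found together in the same cells. All 3 were detected in 902 of its 1907 thinned cells (47.3%, 45.0 to 49.6), 2 in 364, 1 in 282 and none in 359. Library 1 had all 3 in 30 of 3319 cells (0.904%, 0.611 to 1.29), 2 in 36, 1 in 107 and none in 3146. Among cells with any chain gene, all 3 were detected in 17.3% in library 1 and in 58.3% in library 2. These shares came from 1 random draw; the share expected over all draws was 0.887% and 46.5% for all 3 chain genes and 5.03% and 80.8% for any. Over all 9 genes, the median cell had 0 detected in library 1 and 4 in library 2, and the most in any cell was 7 and 8.

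**Figure D2:**
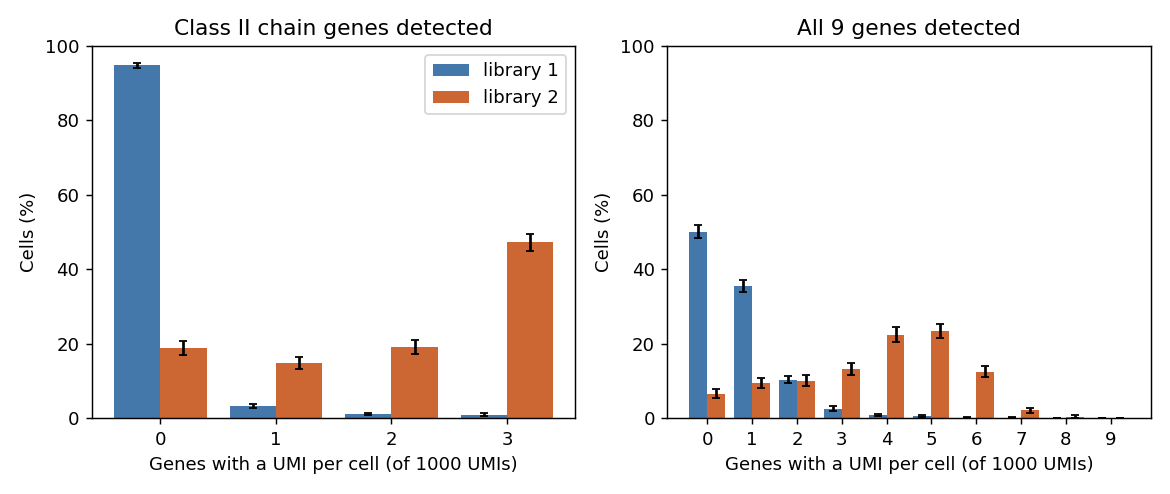
Share of cells (%) by the number of chain genes (left) and of all 9 genes (right) with a UMI among 1000 UMIs, with exact binomial 95% intervals. In library 1 most cells have no chain gene, and in library 2 the most frequent class has all 3.

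Within a library, the presence of one chain gene marked out cells with the others. In library 1, H2-Eb1 was found in 46 of 89 cells with H2-Aa (51.7%) and in 27 of 3230 without it (0.836%). In library 2 the same shares were 80.8% of 1226 cells and 30.1% of 681. H2-Ab1 was found in 47.2% of library 1 cells with H2-Aa and in 2.01% without, and in 86.3% and 34.8% in library 2. So a chain gene was more frequent in cells with another chain gene than in cells without it, in both libraries. In library 1 most cells with any chain gene still had only 1 detected (107 of 173, 61.8%), against 18.2% in library 2. The Spearman correlation over thinned cells between pairs of chain genes was 0.42 to 0.56 in library 1 (3319 cells) and 0.58 to 0.61 in library 2 (1907 cells). It is a description, since the genes of a cell share its library and its thinned depth.

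Cd74 was found in more thinned cells than the chain genes, so shares given by Cd74 and by a chain gene would differ through abundance alone. In library 1, 87.6% of cells with H2-Aa had Cd74, against 25.8% of those without. Of the 911 cells of library 1 with Cd74, 85.9% had no chain gene after thinning, against 94.8% of all thinned cells of that library. In library 2, 98.5% of cells with H2-Aa had Cd74, against 69.0% of those without. Among its 1677 cells with Cd74, 10.7% had no chain gene, against 18.8% of all its thinned cells. H2-DMa was found without a chain gene in 90.9% of its 538 cells of library 1 and in 9.91% of its 807 cells of library 2. For both genes these shares lay below those of all thinned cells of the same library. Over all UMIs, Cd74 had 3.82 UMIs per chain UMI in library 1 and 1.56 in library 2, a ratio with no correction for gene length. The Spearman correlation of Cd74 with the summed chain genes was 0.30 in library 1 and 0.83 in library 2, and 0.28 and 0.82 among microglia-gated cells (3239 and 1635).

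The DM and DO partners were less tightly joined. H2-DMb1 was found in 15.6% of library 1 cells with H2-DMa and in 12.5% of those without, and in library 2 in 29.6% and 26.9%. H2-Ob was found in 3 of 192 library 2 cells with H2-Oa (1.56%) and in 1.22% of those without, and in 2 of 154 (1.30%) and 1.80% in library 1. The interval of the share with the partner held the share without it for H2-DMb1 in library 2 and for H2-Ob in both libraries. With all UMIs counted H2-DMa was found in 63.6% and 92.7% of cells, against 16.2% and 42.3% at 1000 UMIs, so a closer link may not be detectable at this depth.

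**Figure D3:**
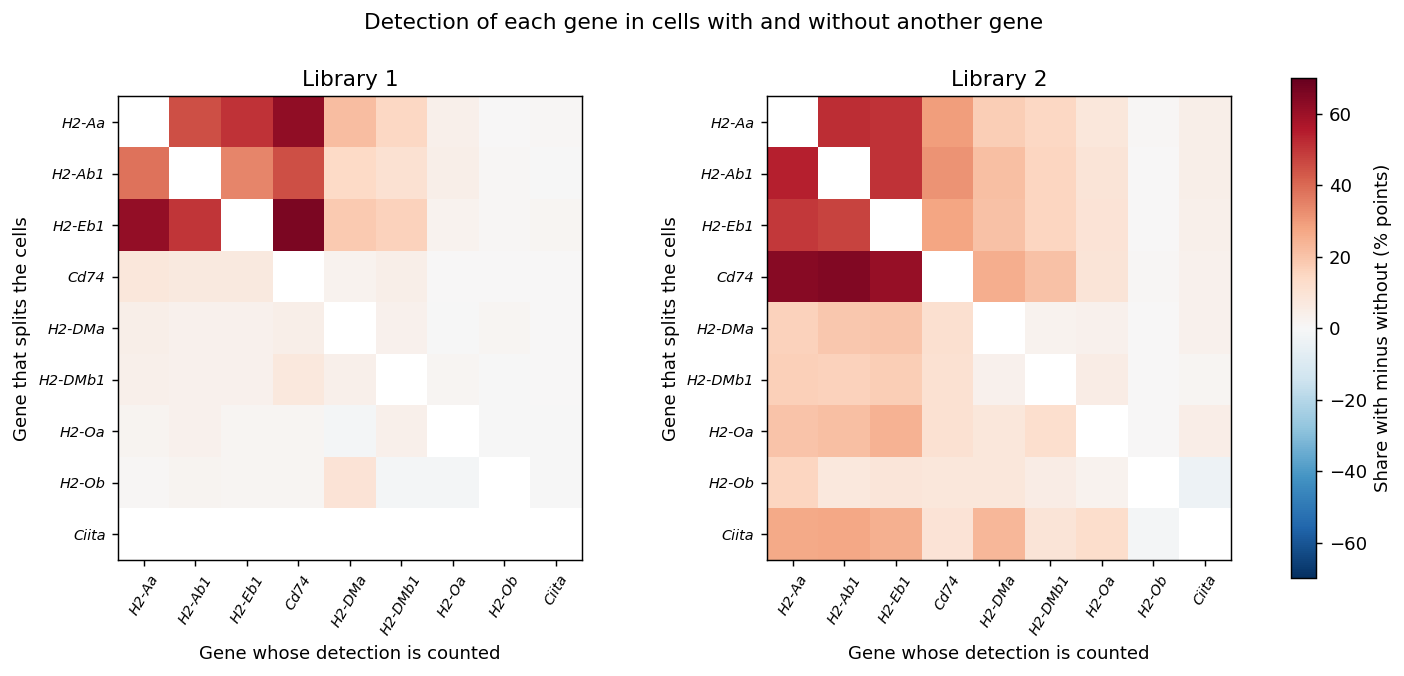
For each gene that splits the cells (rows), the share of cells with another gene (columns) among cells with the first minus the share among cells without it, in percentage points, after thinning to 1000 UMIs; white marks the same gene or fewer than 20 cells. The block of H2-Aa, H2-Ab1, H2-Eb1 and Cd74 stands out in library 2, and in library 1 it stands out where a chain gene splits the cells.

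Ciita was counted over all UMIs, because thinning left few of its cells. In library 1, 17 cells had a Ciita UMI, at most 2 in a cell; 16 of them had a chain gene and 14 all 3 (82.4%, 56.6 to 96.2), against 3.19% of the 3389 cells without Ciita. In library 2, 476 cells had one, at most 7 in a cell; 475 had a chain gene and 464 all 3 (97.5%, 95.6 to 98.7), against 75.9% of the 1446 without. Cells with Ciita thus held all chain genes more often in both libraries. The summed chain genes stood at 2022 CPM in Ciita cells of library 1 and 157 CPM in the others, and at 8398 and 4744 CPM in library 2. Cells with Ciita were also deeper, with median UMIs of 9741 against 7325 in library 1 and 10634 against 9563.5 in library 2; the part of depth in the unthinned shares was not tested.

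The level of the chain genes was spread differently in the libraries. In library 2 the summed chain genes had a median of 46.9 UMIs per 10000 UMIs of a cell, with the 10th percentile at 1.22, the 90th at 127 and the highest cell at 278. In library 1 the median was 0, the 99th percentile 37.7 and the highest cell 423. A few cells of library 1 thus reached the levels of the highest cells of library 2. The cell at 423 was not among the 10 cells of library 1 with most chain UMIs, so it held at most 96. The cell with 186 chain UMIs stood at 374 and had 3 microglia markers and 3 border-associated macrophage markers. The 10% of cells with most chain UMIs held 95.5% of all chain UMIs in library 1 and 31.6% in library 2, and the top 1% (34 and 19 cells) held 59.5% and 5.24%. For Cd74 the top 10% held 67.1% and 29.3%. H2-DMa was more even in both, with 35.9% and 25.8%, and after thinning its variance over its mean was 1.06 and 1.12, close to that of counting alone. The same ratio was 12.3 and 5.17 for the summed chain genes and 7.76 and 6.46 for Cd74.

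**Figure D4:**
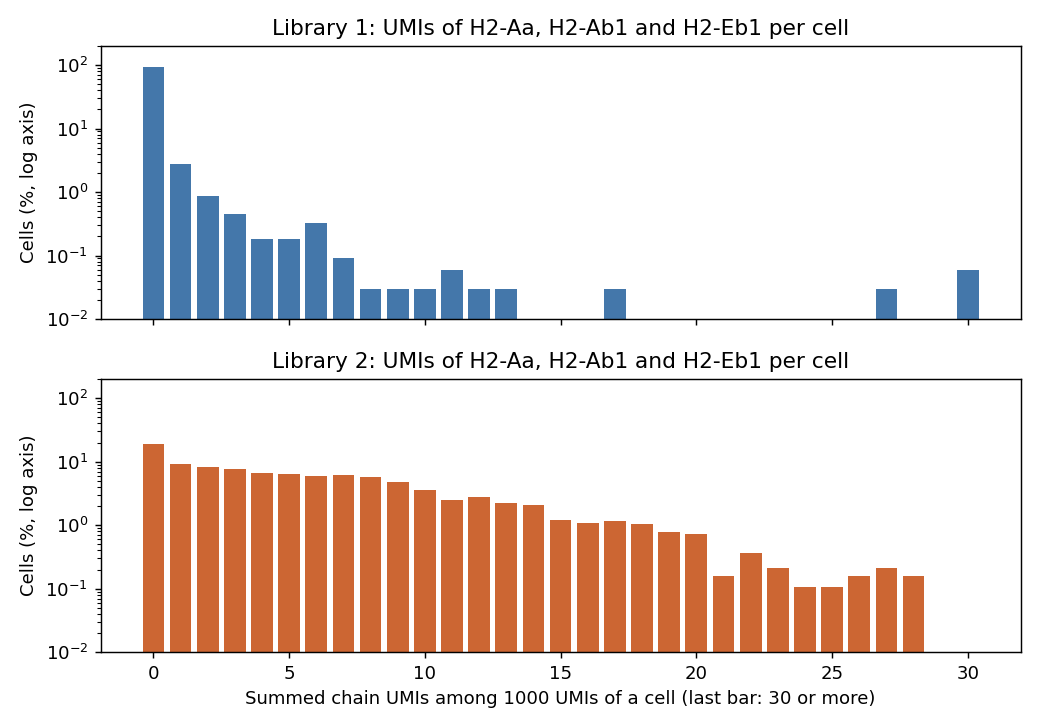
Share of cells (%, log axis) by the summed UMIs of H2-Aa, H2-Ab1 and H2-Eb1 among 1000 UMIs of a cell; the last bar holds cells with 30 or more. Library 1 falls from a peak at 0 to a thin tail of single cells, and library 2 runs on without a gap up to 28.

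Cells were then set out by the number of chain genes detected, and the other 6 members were read in them over all UMIs. In library 1, Cd74 stood at 370 CPM in cells with no chain gene and at 13089 CPM in the 30 cells with all 3, a 35.3-fold difference (34.0 to 36.7). H2-DMa was 3.28-fold (2.78 to 3.85) and H2-DMb1 2.87-fold (2.35 to 3.48) higher in those 30 cells. H2-Oa was 1.81-fold higher (1.17 to 2.68; 25 UMIs), and a second random draw gave 2.52-fold. H2-Ob had only 6 UMIs there, with a ratio of 1.22 (0.446 to 2.68), and Ciita had 3, against 6 UMIs in the 3146 cells with none, too few for the 2-fold rule. So 3 of the 5 members with enough UMIs were at least 2-fold higher, where 6.65% of 12289 genes were, and 8.41% were lower.

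In library 2, Cd74 stood at 1224 CPM in cells with no chain gene and 13580 CPM in the 902 cells with all 3, 11.1-fold apart (10.8 to 11.4). Ciita stood at 6.66 and 58.1 CPM, 8.72-fold apart (5.80 to 13.7), and H2-Oa at 31.4 and 187 CPM, 5.98-fold apart (4.94 to 7.29). H2-DMb1 was 3.55-fold, H2-DMa 2.29-fold and H2-Ob 2.19-fold (1.48 to 3.35; 30 and 178 UMIs) higher. All 6 members were at least 2-fold higher, where 1.11% of 11902 genes were, and 14.5% were lower. Of the 359 cells with no chain gene, 71.3% were microglia-gated and 38 were gated as sensory neurons, against 90.5% and 0 of the 902. Among microglia-gated cells alone, 4 of the 6 were at least 2-fold higher, where 1.67% of genes were: Cd74 at 9.33-fold, Ciita at 10.4-fold, H2-Oa at 4.71-fold and H2-DMb1 at 2.89-fold. H2-DMa then stood at 1.86-fold (1.74 to 1.99) and H2-Ob at 1.75-fold (1.18 to 2.69).

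**Figure D5:**
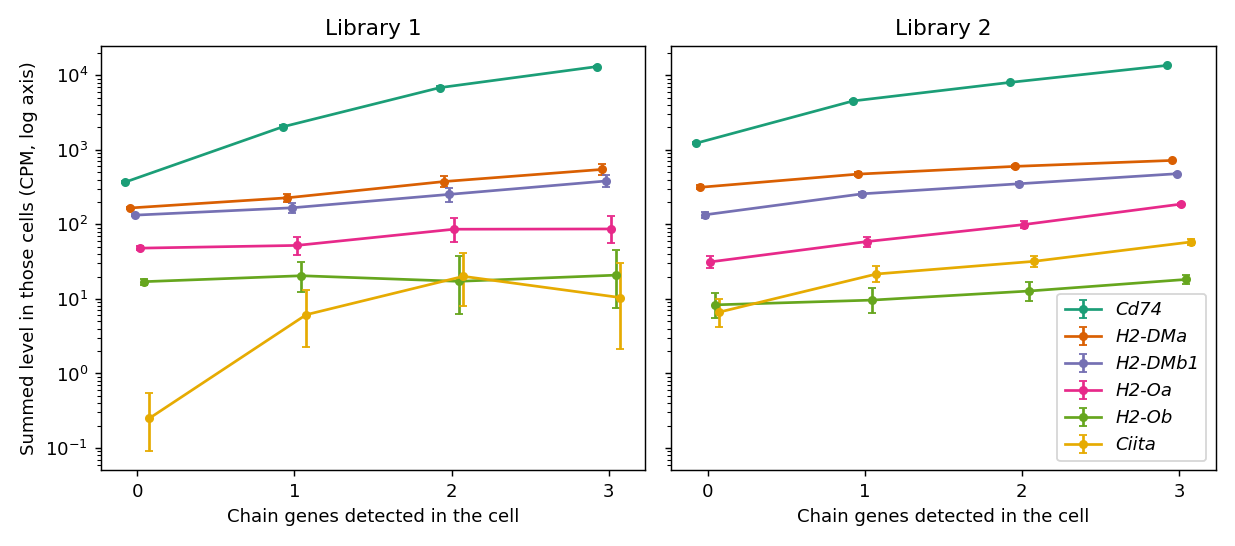
Summed level (CPM, log axis) of Cd74, H2-DMa, H2-DMb1, H2-Oa, H2-Ob and Ciita in cells with 0, 1, 2 or 3 chain genes detected; bars are 95% Poisson intervals. Cd74 climbs most steeply in library 1 among the genes with enough UMIs, and in library 2 the points of all 6 genes are highest at 3 chain genes.

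Markers of other cells that can carry class II were read in the same bins. In the 30 cells of library 1 with all 3 chain genes, 24 (80.0%) were microglia-gated, against 97.8% of cells with none. Markers of border-associated macrophages summed to 257 CPM there, with 5 of 7 detected and Lyve1 and Cbr2 at 0, against 84.7 CPM in cells with none. They were highest in the 36 cells with 2 chain genes, at 566 CPM (489 to 650) with 6 of 7 detected and Cd163 at 0, and stood at 23.6 CPM in the 107 cells with 1. Dendritic cell markers summed to 153 CPM, with 1 of 8 detected and Flt3 and Zbtb46 at 0, against 292 CPM. B cell markers summed to 86.9 CPM, with 1 of 6 detected and Cd79a and Ms4a1 at 0, against 48.7 CPM, and monocyte markers to 27.8 CPM against 9.79. In library 2 the border-associated macrophage markers summed to 8.72 CPM in cells with all 3 chain genes, with 6 of 7 detected. In cells with none they summed to 110 CPM, with 4 of 7 detected and Cd163, Lyve1 and F13a1 at 0. That bin also held 38 neuron-gated cells, and the border-associated macrophage gate held 0 cells of library 2. The dendritic cell markers summed to 45.9 CPM in cells with all 3 chain genes and 30.8 CPM in cells with none. The part of these markers in the class II levels was not tested. Within the microglia gate of library 1, Cd74 was 30.6-fold higher in the 24 cells with all 3 chain genes than in those with none. That gate sets no upper limit on macrophage markers: the cell with 230 chain UMIs passed it with 3 of them. The gated value therefore cannot tell microglia from macrophages or from mixed barcodes.

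Of the 23 pathway genes, 1 was at least 2-fold higher in cells with all 3 chain genes and 1 lower in library 1, and 1 higher and 0 lower in library 2. In library 1 the lower one was Rfx5, an RFX subunit, with 1 UMI in the 30 cells (ratio 0.307, 0.00774 to 1.72). In library 2 the higher one was H2-DMb2, at 8.60 and 18.0 CPM. Ctss was 1.45-fold higher in library 1 and 1.34-fold higher in library 2. Among microglia-gated cells alone it was 1.44-fold and 1.10-fold higher. The median log2 difference over the pathway genes was -0.04 and 0.17, beside 1.23 and 1.89 over the 6 other members and -0.14 and -0.08 over all genes tested.

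Among non-members found in at least 5% of thinned cells, those most like the summed chain genes over cells in library 1 were H2-Q7, H2-D1, H2-K1, B2m and H2-Q4, all of MHC class I, with Spearman correlations of 0.19 to 0.11 over 3319 cells. In library 2 they were Cst3, Ctss, C1qa, Cd81 and Tmem119, with 0.24 to 0.18 over 1907 cells. These values are weak for sparse counts. They were taken over all thinned cells and not over microglia-gated cells alone, and Tmem119 is itself a marker of the microglia gate. In library 2, 71.3% of cells with no chain gene were microglia-gated, against 90.5% of those with all 3. The part of this mix of cells in the correlations was not tested. A second random draw shared 4 of the 5 names in library 1 and 3 of 5 in library 2. H2-Q7 and H2-Q4 have close copies that could share their reads, so their values are uncertain.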

How the data were processed

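Single cells were profiled by 10x Genomics droplet RNA-seq. The deposited matrix holds whole UMI counts for 31053 genes and 6272 barcodes (47541728 UMIs), and its header names Cell Ranger 3.1.0; the submitters' processing notes name Cell Ranger, bcl2fastq and UMI-tools, and the genome build is not given in the sources used here. Cells under 200 genes or over 20% mitochondrial UMIs were left out (432 and 512 barcodes). Summed counts were divided by library totals (CPM) with exact Poisson 95% intervals. Shares were taken after thinning to 1000 UMIs without replacement, with exact Clopper-Pearson 95% intervals, using Python 3.11.15, NumPy 2.4.6 and SciPy 1.17.1; 87 and 15 shallower cells were left out. Intervals cover counting error only. A gene was called at a 2-fold difference with at least 20 UMIs over both sides. Log2 ratios had 10 CPM added.

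The members, lists and markers were chosen with earlier results of these data known. Named genes were the members, up to 6 pathway genes by level and by difference between chain gene bins, and 5 correlates per library. The way of drawing the thinned UMIs was replaced after a first draw had been seen, because subsets of cells then drew different UMIs; the share expected over all draws and a second draw are given for that reason. Scripts were tested on simulated data. No cell types were called and no doublet caller was run. Ifi30 and H2-Ea were not analysed here, and single values of some listed genes are not reported here.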

Additional observations from a re-analysis of the deposited data

How the results depend on the processing

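At least 2-fold higher in library 2 were 8 members under each of the 7 alternatives run on that count. The share of all genes ran from 9.97% (microglia-gated cells) to 16.2%. Adding 1 CPM could not change the count, because the 2-fold call used ratios with nothing added (1979 genes either way). Letting in genes with at least 1 UMI could not change it either, because every member already had enough UMIs. Only the other alternatives put the count to a test. Between cells with 3 and with 0 chain genes, 3 members passed the 2-fold rule in library 1 and 4 without the 5% of cells with most UMIs (8.1% of all genes) or under another seed (6.32%); in library 2 it was 6, and 4 among microglia-gated cells (1.67%). The ratio of H2-Ob in library 1 turned below 1, to 0.656 among microglia-gated cells and 0.675 without the 5% of cells with most UMIs, on 3 and 2 UMIs. Shares moved with depth, by construction. Any chain gene was found in 3.45% of library 1 and 72.0% of library 2 at 500 UMIs, 7.46% and 87.3% at 2000, 12.6% and 91.5% at 5000 (added after seeing the data) and 15.9% and 92.2% with no thinning. All 3 were found in 0.295% and 22.7%, 1.50% and 63.6%, 2.68% and 78.5%, and 3.58% and 81.3%. When 2 UMIs per gene were asked for, any chain gene was found in 1.75% and 65.5%, and all 3 in 0.271% and 24.7%. In library 2, any and all 3 came to 69.5% and 38.7% with no cell filter and to 84.3% and 49.9% among microglia-gated cells. Library 2 was the higher under every setting named here. The expected share over all draws and the bins without the deepest cells were also added after seeing the data. Genes with few UMIs, H2-Ob and Ciita in library 1 above all, are limited by depth. No paired analysis was possible because each pool is 1 sample and the barcode suffixes carry no replicate number.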

Other observations

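Cst3, an inhibitor of endosomal cysteine proteases and among the genes with most UMIs, stood on opposite sides in the libraries. It was picked out after its values were seen. In library 1 its level was 45658 CPM in cells with no chain gene and 28019 CPM in cells with all 3, a ratio of 0.614 (0.600 to 0.627). In library 2 it was 6790 and 10539 CPM, a ratio of 1.55 (1.53 to 1.57). Among microglia-gated cells the ratios were 0.638 and 1.32, and with another random draw 0.666 and 1.53. The Spearman correlation of Cst3 with the summed chain genes over thinned cells was -0.11 in library 1 and 0.24 in library 2, both weak. The difference between the libraries was not tested.

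The 10 cells of library 1 with most chain UMIs held 96 to 230 of them, and 8 of the 10 had at least 5 of the 7 microglia markers. The cell with 186 chain UMIs had 3 microglia markers and 3 of the border-associated macrophage markers, and the cell with 168 had 4 and 1. The cells with 230 and 98 chain UMIs and 1 of the pair with 121 also had 3 border-associated macrophage markers, each with all 7 microglia markers. In library 2 the top 10 cells held 310 to 508 chain UMIs, and all 10 had at least 6 of the microglia markers.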
